A study of Drosophila melanogaster with 13 samples.

Results

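Genomic sites bound by Dmel_Zeus, the Zeus protein of D. melanogaster, were compared with those bound by Dyak_Caf40, the Caf40 protein of D. yakuba. The comparison covered 376 Dmel_Zeus and 1963 Dyak_Caf40 peaks, 2339 of the 3429 distinct peaks in the 3 lists of the series. A peak is an interval of the genome in which chromatin pulled down with an antibody gave more sequence reads than its surroundings. A Dyak_Caf40 peak was called kept when it shared at least 1 bp with a Dmel_Zeus peak, and not kept otherwise.

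Caf40, also known as Rcd-1, is a conserved subunit of the CCR4–NOT complex, which removes poly(A) tails from mRNAs and acts at several steps of gene expression. Zeus is a retrogene, an intronless copy made from the Caf40 mRNA, and it is expressed mainly in the male germ line. D. yakuba lacks Zeus, so its Caf40 stands for the protein before the duplication. In D. melanogaster, chromosome 4 is a small dot chromosome rich in repeats and heterochromatic marks, and males carry a single X.

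Both proteins were expressed in transgenic D. melanogaster of the w1118 line. Each coding sequence carried a FLAG epitope tag, was driven by the Actin5C promoter, which is active in most tissues, and was inserted with a piggyBac vector. Chromatin came from whole adult flies, with 150 flies per technical replicate, and was precipitated with an anti-FLAG antibody. By the labels, Dmel_Zeus has 2 immunoprecipitated libraries and Dyak_Caf40 has 4, and each protein has 1 input library, made from chromatin before the antibody step. The host line keeps its own untagged Zeus and Caf40 genes. Whole flies pool all tissues, so no peak can be assigned to one of them. All libraries of a protein are technical replicates from one line of transgenic flies. The expression level of each transgene was not analysed here, and a difference between proteins cannot be told apart from one between lines.

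One list of peaks per protein was analysed, with no value per library. The read depth behind a peak is therefore unknown, and no difference could be set against the spread between replicates. The study reports read totals for each replicate, which were not analysed here. No test was made. Shares are given with 95% Wilson intervals and medians with 95% order-statistic intervals. A difference in medians between kept and not kept peaks has a range spanned by the limits of both medians, which is wider than a 95% interval. These intervals cover counting error only and treat neighbouring peaks as independent. Each peak has a score of unstated scale, and scores were used to rank peaks within a list, with rank 1 for the highest score. All coordinates are on dm3, counted from 1. No annotation of that build was used, so whether a peak lies in a gene, an exon or an intron was not analysed here.

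Dmel_Zeus peaks lay almost entirely at Dyak_Caf40 sites, while most Dyak_Caf40 sites had no Dmel_Zeus peak. Of the 376 Dmel_Zeus peaks, 363 (96.5%, 94.2 to 98.0) shared sequence with a Dyak_Caf40 peak and 13 did not. Of the 1963 Dyak_Caf40 peaks, 354 were kept (18.0%, 16.4 to 19.8) and 1609 were not. The Dmel_Zeus peaks covered 156 kb and the Dyak_Caf40 peaks 897 kb. The smaller count of kept peaks than of shared Dmel_Zeus peaks came from 9 Dyak_Caf40 peaks of 773 to 5179 bp that each met 2 Dmel_Zeus peaks, 7 of them on the large autosomal arms. No Dmel_Zeus peak met more than 1 Dyak_Caf40 peak.

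The line between kept and not kept was clear-cut in base pairs. The kept peak with the least shared sequence shared 137 bp (chrX:1988536-1988786), and the next shared 181 bp (chr3R:11791012-11791249) and 194 bp (chr4:775998-777581). The nearest misses lay 108 bp (chr2L:4997815-4998213), 165 bp (chr3L:19439661-19439960) and 205 bp (chrX:15828104-15828400) from a Dmel_Zeus peak. Most peaks that were not kept lay far from any Dmel_Zeus peak. Their median gap to the nearest one was 102044 bp (88356 to 113332), 232 of them (14.4%) had one within 10 kb, and 48 (2.98%) had one within 1000 bp.

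Kept peaks were the high-scoring ones of the Dyak_Caf40 list. Among the 100 highest-scoring Dyak_Caf40 peaks, 99 were kept, and 98 of the next 100. The following steps of 100 peaks held 74, 48, 19 and 6 kept peaks. In all, 338 of the 354 kept peaks (95.5%) ranked in the top 500, and 16 of the 1463 peaks below that rank were kept (1.09%). The last kept peak was followed by 844 peaks, none of them kept by definition. The median score percentile, counted so that 100 is the highest score of the list, was 90.9 (89.9 to 91.8) for kept peaks and 41.0 (38.9 to 43.1) for not kept peaks.

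**Figure D1:**
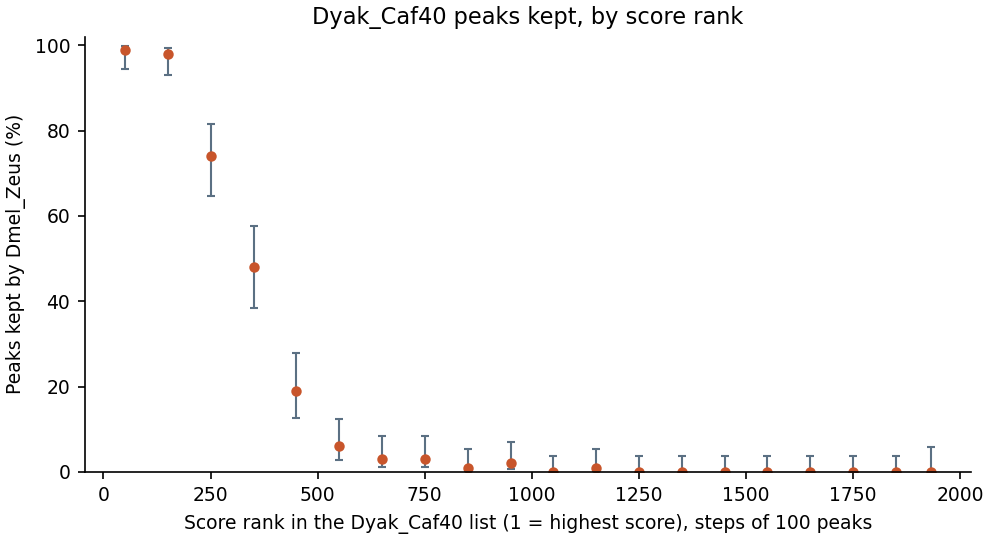
Share of Dyak_Caf40 peaks kept by Dmel_Zeus (y axis, percent) in steps of 100 peaks along the Dyak_Caf40 score rank (x axis, rank 1 is the highest score). Points are shares and bars are 95% Wilson intervals. The share was 99% in the first step, 48% in the fourth and 6% in the sixth, and no peak was kept in the steps past the twelfth.

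The Dyak_Caf40 list was also split into 4 score classes of nearly equal size. The highest class, with scores of 20.06 and above, kept 337 of 490 peaks (68.8%, 64.5 to 72.7). The second class kept 15 of 490 (3.06%, 1.86 to 4.99), the third 2 of 492 (0.407%, 0.112 to 1.47) and the lowest 0 of 491 (0%, 0 to 0.776). When the list was cut to its 376 highest-scoring peaks, the size of the Dmel_Zeus list, 312 were kept (83.0%). Sharing was incomplete even between the tops of the lists. Of the top 100 peaks of each list, 74 lay at a top 100 peak of the other, and of the top 10 peaks, 7 did.

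Some sites went against this gradient on either side. Among the strongest Dyak_Caf40 peaks that were not kept, the first was chr2L:7641638-7641992, with rank 84 of 1963 and a width of 355 bp. It was the single peak not kept among the first 100. The next was chr3L:9817378-9817704, with rank 151 and 327 bp. The others were chrX:15753940-15754248 (rank 179, 309 bp), chr2L:10387882-10388183 (rank 204, 302 bp) and chr2R:18009909-18010261 (rank 217, 353 bp). All 5 were narrower than the median kept peak of 419 bp. This was usual for not kept peaks of the highest score class, whose median width was 306 bp and upper quartile 384 bp. At the other end, the kept peak with the lowest score was chr4:769130-769621, with rank 1118, where the Dmel_Zeus peak chr4:769268-769484 had rank 371 of 376. The other kept peaks of very low score were chrX:1988536-1988786 (rank 984.5, a tie) and chr3L:3320755-3321330 (rank 906.5, a tie), and their Dmel_Zeus peaks ranked 336 and 355. At these 3 sites the Dmel_Zeus peak was also among the weak ones of its list, while over the 16 kept peaks below the top 500 the Dmel_Zeus ranks ran between 151 and 374.

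The share of peaks kept differed between chromosomes. On chromosome 4, 24 of 62 Dyak_Caf40 peaks were kept (38.7%, 27.6 to 51.2). On X, 65 of 286 were kept (22.7%, 18.3 to 27.9). On the heterochromatic sequences of the build, which hold assembled repeat-rich sequence apart from the arms, 32 of 96 were kept (33.3%, 24.7 to 43.2). On the large autosomal arms 2L, 2R, 3L and 3R, 233 of 1519 were kept (15.3%, 13.6 to 17.2). Against the 18.0% of all peaks, the intervals of chromosome 4, the heterochromatic sequences and X lay above it, X only narrowly, and that of the large autosomal arms lay below it. With the higher-scoring 50% of each list, X kept 16.1% of its peaks (11.1 to 22.8), below the 18.3% of all peaks at that limit. This limit halved the Dmel_Zeus list too, so Dyak_Caf40 peaks that met only its lower-scoring peaks counted as not kept.

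The 4 large autosomal arms differed little among themselves. Their kept shares were 14.7% on 2L (47 of 319), 15.8% on 2R (59 of 373), 14.8% on 3L (58 of 392) and 15.9% on 3R (69 of 435), and the intervals overlapped. The heterochromatic sequences were less alike. On XHet 7 of 8 peaks were kept, on 3LHet 10 of 32, on 3RHet 5 of 19 and on 2RHet 7 of 34. Both peaks of 2LHet and the single peak of YHet were kept. Peaks in the 1 Mb of 2L, 2R, 3L, 3R and X next to the centromere were kept in 29 of 100 cases (29.0%, 21.0 to 38.5), and those on the rest of these arms in 269 of 1705 (15.8%, 14.1 to 17.6).

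Chromosomes also differed in how many of their Dyak_Caf40 peaks had high scores, and this moved with the kept share. The highest score class held 48.4% of the Dyak_Caf40 peaks of chromosome 4, 29.7% of those of X, 43.8% of those on heterochromatic sequences and 21.9% of those on the large autosomal arms. Within this class the kept shares lay close together. They were 73.3% on chromosome 4 (22 of 30, 55.6 to 85.8), 71.8% on X (61 of 85, 61.4 to 80.2), 73.8% on heterochromatic sequences (31 of 42, 58.9 to 84.7) and 67.0% on the large autosomal arms (223 of 333, 61.7 to 71.8). All of these intervals included the 68.8% of the whole class, and the intervals of chromosome 4, X and heterochromatic sequences overlapped that of the large arms. Within the highest class a chromosome difference was therefore not detectable with these numbers of peaks. Below it, few peaks were kept on any sequence, with 2 of 32 on chromosome 4 (6.25%, 1.73 to 20.1), 4 of 201 on X (1.99%, 0.777 to 5.004), 1 of 54 on heterochromatic sequences (1.85%, 0.328 to 9.77) and 10 of 1186 on the large autosomal arms (0.843%, 0.459 to 1.55). There the interval of chromosome 4 lay above that of the large autosomal arms, on 2 kept peaks, and those of X and heterochromatic sequences overlapped it.

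**Figure D2:**
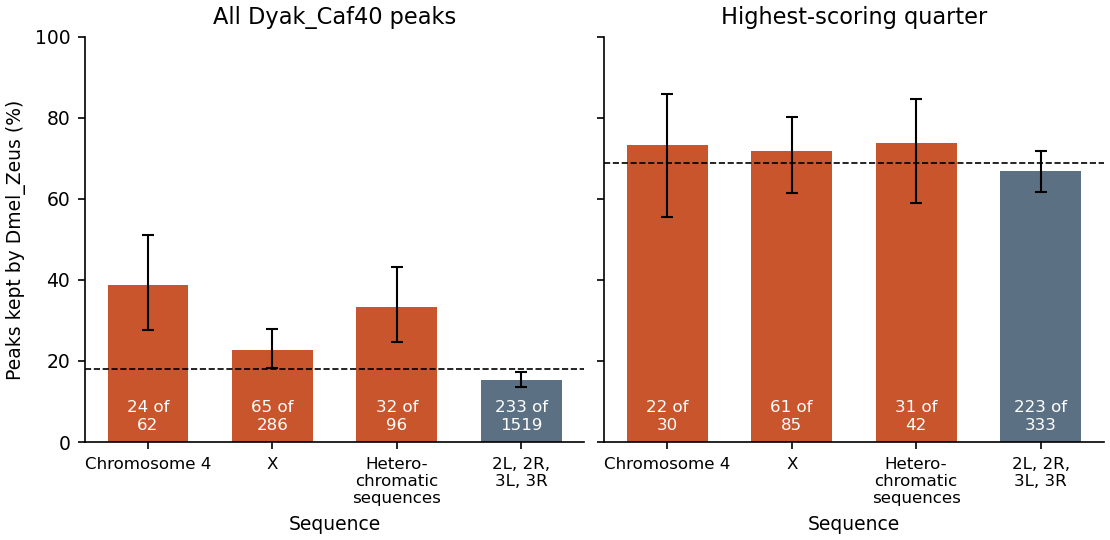
Share of Dyak_Caf40 peaks kept by Dmel_Zeus (y axis, percent) on chromosome 4, X, the heterochromatic sequences and the large autosomal arms, for all peaks (left) and for the highest-scoring of 4 score classes (right). Bars are shares, error bars are 95% Wilson intervals, numbers are kept peaks of all peaks, and dashed lines mark the share over all sequences. The shares run between 15.3% and 38.7% on the left and between 67.0% and 73.8% on the right.

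Seen as the makeup of each set, 6.78% of kept peaks lay on chromosome 4 (24 of 354, 4.60 to 9.89), against 2.36% of not kept peaks (38 of 1609, 1.73 to 3.22). X held 18.4% of kept peaks (65 of 354, 14.7 to 22.7), against 13.7% of not kept peaks (221 of 1609, 12.1 to 15.5). Heterochromatic sequences held 9.04% of kept peaks (32 of 354, 6.48 to 12.5), against 3.98% of not kept peaks (64 of 1609, 3.13 to 5.05). The large autosomal arms held 65.8% of kept peaks (233 of 354, 60.7 to 70.6), against 79.9% of not kept peaks (1286 of 1609, 77.9 to 81.8). For X the intervals of the kept and not kept sets overlapped, and for the other sequences they did not.

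Kept peaks were wider than peaks that were not kept. Their median width was 419 bp (395 to 443), against 318 bp (309 to 327) for not kept peaks. In the highest score class the medians were 414 bp (392 to 432) for kept and 306 bp (289 to 320) for not kept peaks. With the higher-scoring 50% of each list the difference in medians was 38 bp (-13 to 78), a range that included 0. With all peaks it was 101 bp (68 to 134). In the halved lists, Dyak_Caf40 peaks that met only lower-scoring Dmel_Zeus peaks counted as not kept, so the sets compared were not the same. The relation was not a simple rise with width. Over 4 width classes of nearly equal size, narrow to wide, 6 of 491 peaks (1.22%), 76 of 491 (15.5%), 146 of 490 (29.8%) and 126 of 491 (25.7%) were kept. Within the highest score class, the width classes kept 36.6%, 70.5%, 89.3% and 78.9% of their peaks. The third width class there, with peaks of 378 to 536 bp, also had the highest median score percentile, at 94.8, and the narrowest class the lowest, at 81.2. Among the widest Dyak_Caf40 peaks, those over 1000 bp, 49 of 130 were kept (37.7%, 29.8 to 46.3).

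Kept peaks also stood farther from other Dyak_Caf40 peaks. The median distance to the nearest other Dyak_Caf40 peak, measured between midpoints, was 11731 bp (7878 to 14624) for kept peaks and 2402 bp (2049 to 2842) for not kept peaks. Of the peaks with no other Dyak_Caf40 peak within 10 kb, 184 of 697 were kept (26.4%, 23.3 to 29.8). Of those with such a neighbour, 170 of 1266 were kept (13.4%, 11.7 to 15.4). In the highest score class these shares were 70.5% (179 of 254, 64.6 to 75.7) without a neighbour and 66.9% (158 of 236, 60.7 to 72.6) with one, and the median distances were 12023 bp (8016.5 to 15480.5) for kept and 9598.5 bp (5815.5 to 14570.5) for not kept peaks. A difference in spacing was therefore not detectable in the highest score class. With the higher-scoring 50% of each list, which changes which peaks count as kept, the difference in medians was 12937 bp (-1668 to 25470). With all peaks it was 9329 bp (5036 to 12575).

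**Figure D3:**
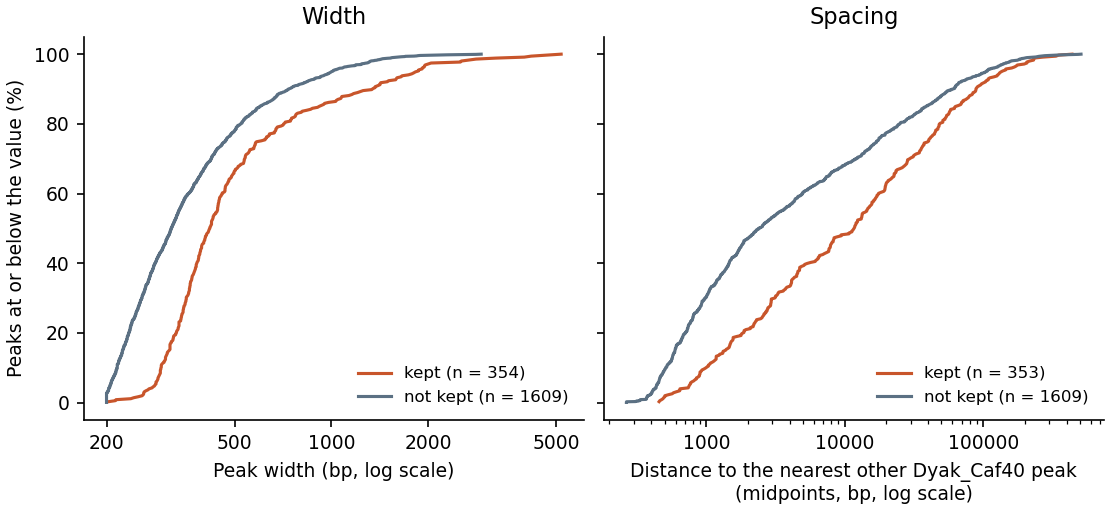
Cumulative distributions of peak width (left) and of the distance to the nearest other Dyak_Caf40 peak between midpoints (right), both in bp on a log scale, for kept and not kept Dyak_Caf40 peaks. The y axis gives the percent of peaks at or below a value. The kept curve lies to the right in both panels, with medians of 419 against 318 bp and of 11731 against 2402 bp. One kept peak was alone on its sequence and has no distance.

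When Dyak_Caf40 peaks with gaps under 10 kb were joined, the list formed 1091 groups, 690 of them single peaks and 401 of them clusters. Single peaks were kept in 183 cases (26.5%, 23.4 to 29.9), and the 1273 peaks in clusters in 171 cases (13.4%, 11.7 to 15.4). Dmel_Zeus rarely marked a whole cluster. All peaks were kept in 17 clusters, some in 107 and none in 277. In 87 of the 107 clusters kept in part, exactly 1 peak was kept. In 100 of the 107 (93.5%, 87.1 to 96.8) the highest-scoring peak of the cluster was among the kept ones.

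Dyak_Caf40 clusters of many peaks held few kept ones. The 10 clusters of at least 10 peaks held 135 peaks, of which 8 were kept (5.93%, 3.03 to 11.3), and 5 of these clusters held no kept peak. Of the 10, 9 lay on the large autosomal arms, and the other on chromosome 4. The largest, chr2L:5154781-5202161, held 28 peaks over 47.4 kb with 1 kept, and its best peak had rank 612. The next, chr3L:2065008-2106285, held 19 peaks over 41.3 kb with none kept and a best rank of 365. The cluster on chromosome 4, chr4:768444-797427, held 12 peaks with 3 kept, the highest number among the 10, and a best rank of 486. Peaks of these clusters had a median score percentile of 38.3, and 5 of the 8 that fell in the highest score class were kept. These clusters thus consisted mostly of peaks below the highest score class, which were seldom kept elsewhere too.

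At shared sites the ranks of the proteins were close. Each Dmel_Zeus peak was paired with its Dyak_Caf40 peak, using the higher-scoring Dmel_Zeus peak where there were 2, which gave 354 pairs. Over these pairs Spearman's rho between the scores was 0.853 and Kendall's tau 0.693. The points share the host genome, the antibody and the read depth of each locus, neighbouring sites are not independent, and the correlation is a description. Pairs whose Dyak_Caf40 peak ranked in the first 100 had a median Dmel_Zeus rank of 64 (49 to 81, 99 pairs). For Dyak_Caf40 ranks 101 to 200 the median Dmel_Zeus rank was 162 (145 to 185, 98 pairs), for 201 to 300 it was 249 (226.5 to 276, 74 pairs), for 301 to 400 it was 287.5 (266 to 309, 48 pairs) and for 401 to 500 it was 342 (303 to 352, 19 pairs). The 16 pairs of still lower Dyak_Caf40 rank had a median Dmel_Zeus rank of 356.5 (336 to 371).

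The 5 pairs with the lowest sum of ranks were picked for high ranks in both lists, so agreement of their ranks was in part built in. Other strong sites ranked less alike. Among pairs with Dyak_Caf40 ranks 101 to 200 the best Dmel_Zeus rank was 6. Among those with Dyak_Caf40 ranks 1 to 100 the worst was 181. The pair at chr3R:17234084-17234498 for Dmel_Zeus and chr3R:17234088-17234518 for Dyak_Caf40 ranked 1 in both. The pair at chr3L:18081155-18081523 for Dmel_Zeus and chr3L:18081142-18081536 for Dyak_Caf40 ranked 2 in both. At chr2L:8477963-8478358 the Dmel_Zeus peak ranked 4 and its Dyak_Caf40 peak, chr2L:8477953-8478371, ranked 3. At chr3R:2733798-2734189 the Dmel_Zeus peak ranked 3 and its Dyak_Caf40 peak, chr3R:2733780-2734221, ranked 4. At chr3R:17405767-17406209 the Dmel_Zeus peak, of 443 bp, ranked 5 and its Dyak_Caf40 peak, chr3R:17405204-17406234, of 1031 bp, ranked 7. In the first 4 of these pairs the borders of the peaks lay close to each other. In the last, the Dmel_Zeus peak filled one end of a wider Dyak_Caf40 peak.

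The best pair on X ranked lower in the Dmel_Zeus list than in the Dyak_Caf40 list. The Dmel_Zeus peak chrX:16534538-16535059 had rank 22 and its Dyak_Caf40 peak chrX:16534494-16535067 rank 10. On chromosome 4 the best pair had nearly equal ranks, with 37 for the Dmel_Zeus peak chr4:380328-380679 and 36 for the Dyak_Caf40 peak chr4:380330-380670. Neither chromosome held a pair of the first 5.

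Rank agreement varied in value over the genome. The values have no intervals here, and those from few pairs, as on chromosome 4, are imprecise. Spearman's rho was 0.927 on the large autosomal arms (233 pairs), 0.848 on chromosome 4 (24 pairs), 0.774 on X (65 pairs) and 0.480 on heterochromatic sequences (32 pairs). In the 1 Mb of the large autosomal arms and of X that borders the centromere it was 0.620 (29 pairs), and over the rest of the arms, chromosome 4 included, 0.919 (293 pairs).

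**Figure D4:**
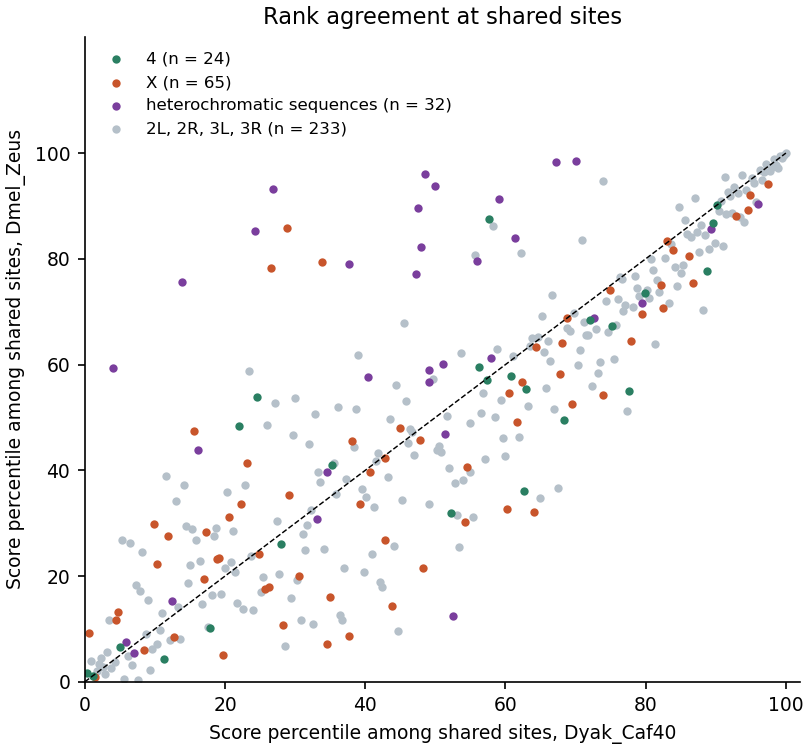
Score percentile of each of the 354 shared sites among all shared sites, for Dmel_Zeus (y axis) and Dyak_Caf40 (x axis), coloured by sequence. The dashed line marks equal percentiles. Most sites lie along the line, with a rho of 0.927 on the large autosomal arms, while sites on heterochromatic sequences (rho 0.480) lie mostly above it.

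To compare sites free of list size, both members of each pair were ranked again among the 354 pairs and turned into percentiles, and the Dyak_Caf40 percentile was subtracted from the Dmel_Zeus percentile. A positive difference means that the site stood higher among shared sites in the Dmel_Zeus list. The median difference over all pairs was -1.69 percentile points (-2.82 to -0.847). On heterochromatic sequences it was 19.9 points (2.82 to 32.2), and 24 pairs stood higher in the Dmel_Zeus list and 8 lower. Without peaks wider than 1000 bp it was 15.2 points (-1.48 to 45.9), an interval that included 0. The 7 pairs of XHet all stood higher, with a median of 31.1 points. The 10 pairs of 3LHet had a median of 20.5 points, with 8 higher and 2 lower. On 2RHet the median was -2.26 points, with 3 pairs higher and 4 lower. The heterochromatic sequences were thus not alike, and each holds few pairs.

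On X and chromosome 4 the differences were close to that of all pairs. The median difference was -3.39 points on X (-5.79 to -0.706; 21 pairs higher, 43 lower) and -2.82 points on chromosome 4 (-7.63 to 1.41; 7 higher, 15 lower). On the large autosomal arms it was -1.69 points (-3.11 to -0.847; 83 higher, 144 lower), and the intervals of X and chromosome 4 overlapped this one. When ranks were taken among pairs of the 6 chromosome arms alone, the medians were -1.09 points on X (-4.04 to 1.4) and -0.47 points on chromosome 4 (-6.83 to 1.86), and both intervals included 0. Pairs in the 1 Mb next to the centromere had a median difference of 5.79 points (-7.06 to 16.4; 16 higher, 13 lower). Of the 20 pairs that stood highest in the Dmel_Zeus list relative to the Dyak_Caf40 list, 13 lay on heterochromatic sequences, 3 in the 1 Mb next to a centromere, 2 elsewhere on X and 2 on chromosome 4. Of the 20 that stood lowest, 1 lay on a heterochromatic sequence, 1 in the 1 Mb next to a centromere, 7 elsewhere on X, 2 on chromosome 4 and 9 elsewhere on the large autosomal arms. Among all 354 pairs, 32 lay on heterochromatic sequences (9.04%), 29 in the 1 Mb next to a centromere, 65 on the whole of X (18.4%) and 24 on chromosome 4 (6.78%). With 2 of 20 in each set, chromosome 4 could not be told apart from its share of all pairs.

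**Figure D5:**
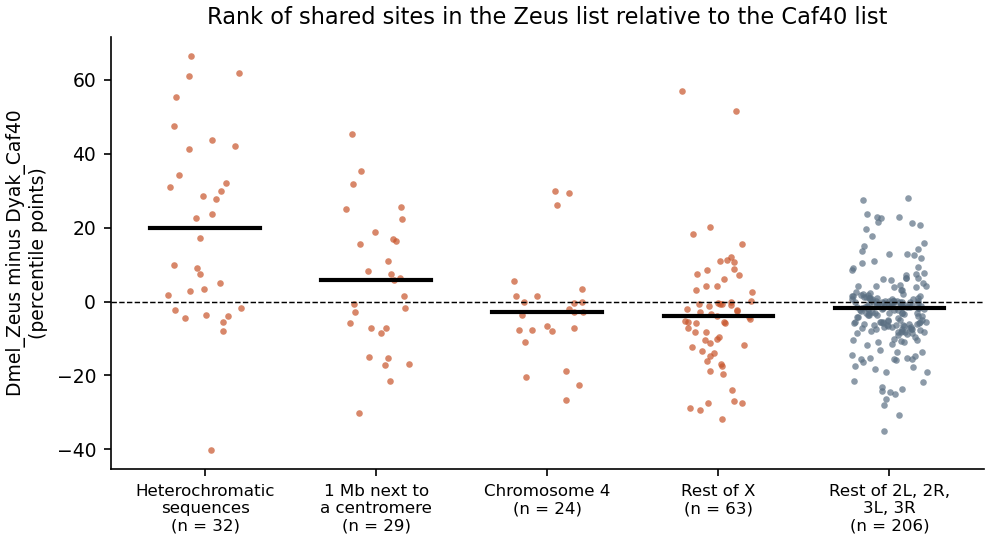
Difference in score percentile among shared sites, Dmel_Zeus minus Dyak_Caf40 (y axis, percentile points), by sequence. Each point is a shared site, spread sideways at random, and black bars are medians. The median lies at 19.9 points on heterochromatic sequences, where it was 15.2 points (-1.48 to 45.9) without peaks wider than 1000 bp, and at -2.82 points on chromosome 4.

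The pairs with the largest differences show the size of these displacements. At chr3RHet:2308125-2308645 the Dmel_Zeus peak ranked 25 of 376, while its Dyak_Caf40 peak chr3RHet:2308248-2308611 ranked 282 of 1963, a difference of 66.4 percentile points. At chr3LHet:2163480-2163985 the Dmel_Zeus peak ranked 88 and its Dyak_Caf40 peak chr3LHet:2163516-2163940 ranked 359 (61.9 points). At chr3LHet:2183255-2184166 the Dmel_Zeus peak ranked 54 and its Dyak_Caf40 peak chr3LHet:2183277-2184042 ranked 296 (61.0 points). All 3 Dmel_Zeus peaks were wider than their Dyak_Caf40 peaks, at 521 against 364 bp, 506 against 425 bp and 912 against 766 bp.

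In the other direction the displacements were smaller. At chr2RHet:2824081-2824405 the Dmel_Zeus peak ranked 325 and its Dyak_Caf40 peak chr2RHet:2823990-2824435 ranked 171 (-40.1 points). At chr3R:7785015-7786112 the Dmel_Zeus peak ranked 335 and its Dyak_Caf40 peak chr3R:7784481-7786480 ranked 200 (-35.0 points). At chrX:13022107-13022381 the Dmel_Zeus peak ranked 253 and its Dyak_Caf40 peak chrX:13022042-13022581 ranked 129 (-31.9 points). Here the Dmel_Zeus peaks were the narrower ones, at 325 against 446 bp, 1098 against 2000 bp and 275 against 540 bp. That is the usual case, since the Dmel_Zeus peak was the wider one in only 27 of all 354 pairs (7.63%).

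Shared peaks coincided closely in position. The median distance between the midpoints of a pair was 16 bp (14 to 21), and 296 of 354 pairs (83.6%) had midpoints within 100 bp. The 26 pairs with midpoints more than 200 bp apart all had Dyak_Caf40 peaks of 698 bp or more. Dmel_Zeus peaks were nested in their partners, with 295 of 354 (83.3%) lying inside the Dyak_Caf40 peak and 20 (5.65%) enclosing it. The median width of the pair members was 313.5 bp (294 to 328) for Dmel_Zeus and 419 bp (395 to 443) for Dyak_Caf40, and the median ratio within a pair was 0.769 (0.744 to 0.790). The Dmel_Zeus peak was the wider one in 27 pairs (7.63%). On heterochromatic sequences the median widths were 479 bp for Dmel_Zeus and 449.5 bp for Dyak_Caf40, and on the large autosomal arms they were 313 bp for Dmel_Zeus and 421 bp for Dyak_Caf40.

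Of the 13 Dmel_Zeus peaks without a Dyak_Caf40 peak, 6 lay on X, 2 on 3L, 2 on 3LHet and 1 each on 2L, 3R and YHet. None lay on chromosome 4. X held 71 of the 376 Dmel_Zeus peaks (18.9%), and 65 of these were shared (91.5%, 82.8 to 96.1). That interval lay narrowly below the 96.5% of all Dmel_Zeus peaks. On heterochromatic sequences 33 of 36 were shared (91.7%, 78.2 to 97.1), and on chromosome 4 all 25 (100%, 86.7 to 100). Both of these intervals included 96.5%. The 13 unshared peaks were not the weakest of the list, with ranks between 33 and 365 of 376 and 7 of the 13 in the higher-scoring 50%. The 6 on X were chrX:9703052-9703731 (rank 89), chrX:9799216-9799585 (rank 219), chrX:10234121-10234504 (rank 139), chrX:11940923-11941634 (rank 210), chrX:12331727-12332095 (rank 94) and chrX:12439388-12439747 (rank 165). These 6 fell between positions 9703052 and 12439747, a stretch of 2.74 Mb or 12.2% of X up to its last peak. In this stretch 6 of 14 Dmel_Zeus peaks were unshared. It was set to run from the first to the last unshared peak of X. That none of the 57 on the rest of X was unshared therefore follows from its limits. The nearest Dyak_Caf40 peak lay at least 19871 bp away from each of the 6.

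The Dyak_Caf40 peaks in this stretch of X were kept about as often as elsewhere on X, at 8 of 31 inside against 57 of 255 outside. Its 8 shared pairs had a median difference of -2.68 percentile points, with 3 higher in the Dmel_Zeus list. The stretch was noticed after the positions of the 6 peaks were seen.

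The remaining 7 unshared Dmel_Zeus peaks fell into short-gap and long-gap cases. Near a Dyak_Caf40 peak were chr3R:11113447-11113665 (rank 364, gap 773 bp), the neighbours chr3LHet:2161297-2161518 (rank 216, gap 1997 bp) and chr3LHet:2160587-2160962 (rank 182, gap 2553 bp), and the neighbours chr3L:18979238-18979575 (rank 358, gap 3170 bp) and chr3L:18978280-18978620 (rank 365, gap 4125 bp). The pair on 3LHet lay beside the shared site at chr3LHet:2163480-2163985, one of those that stood far higher in the Dmel_Zeus list. Farther off were chr2L:23000524-23000765 (rank 146, gap 15225 bp) and chrYHet:4454-4723 (rank 33, gap 132332 bp). The YHet peak was the highest-ranked of the 13 and the single one of them that overlapped a peak of Dsim_Zeus, the D. simulans form of Zeus.

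The Dsim_Zeus list, which holds 1090 peaks, was used for one further crossing. It has 602 peaks on the 6 chromosome arms and 488 on heterochromatic sequences, and most of its peak numbers are absent (given below). Of the kept Dyak_Caf40 peaks 24 of 354 (6.78%, 4.60 to 9.89) also met a Dsim_Zeus peak, against 23 of 1609 (1.43%, 0.954 to 2.14) of the not kept peaks. On heterochromatic sequences these counts were 14 of 32 kept (43.8%, 28.2 to 60.7) against 8 of 64 not kept peaks (12.5%, 6.47 to 22.8). On the 6 chromosome arms they were 10 of 322 kept (3.11%, 1.70 to 5.62) against 15 of 1545 not kept peaks (0.971%, 0.589 to 1.60). Within the highest score class the shares were closer, at 23 of 337 kept (6.82%, 4.59 to 10.03) against 7 of 153 not kept peaks (4.58%, 2.23 to 9.14), and the intervals overlapped. There, 14 of 31 kept peaks against 2 of 11 not kept peaks on heterochromatic sequences met a Dsim_Zeus peak, and 9 of 306 against 5 of 142 on the arms.

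Numbers within the peak names bear on how complete the lists are. Names end in a running number that follows genome order, and not every number was present. The Dmel_Zeus list held 378 of the numbers up to 427 (88.5%), and the Dyak_Caf40 list 1964 of those up to 2844 (69.1%). The Dsim_Zeus list, crossed above, held far fewer, with 1091 of those up to 7835 (13.9%). On heterochromatic sequences the present shares were 70.6% for Dmel_Zeus (36 of 51) and 44.4% for Dyak_Caf40 (96 of 216), and on the large autosomal arms they were 94.6% for Dmel_Zeus (244 of 258) and 70.4% for Dyak_Caf40 (1519 of 2157). Of the 49 absent Dmel_Zeus numbers, 40 fell between neighbouring peaks of the same sequence. Suppose that numbers count called peaks one by one and that absent ones are calls removed by a later filter. These 40 could then lie at no more than 26 of the 1609 not kept peaks (1.62%). The other absent numbers could not be placed and are not in this count. Of the 13 unshared Dmel_Zeus peaks, 11 had Dyak_Caf40 peaks on both sides, and between these a Dyak_Caf40 number was absent in 4 cases. On X this was so for 1 of the 6. What an absent number stands for is not given in the sources used here. Repeated lines of the list also moved with the kept share, as 8 of 106 Dyak_Caf40 peaks present on several lines were kept (7.55%, 3.87 to 14.2), against 346 of 1857 on a single line (18.6%, 16.9 to 20.5). Within the highest score class these counts were 8 of 10 and 329 of 480.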

How the data were processed

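ChIP-Seq libraries were analysed as the study's peak lists, 1 for each protein. According to the study's methods, the authors mapped single-end reads with BWA to the dm3 build and called peaks with MACS2. They kept peaks that intersected between the 2 best replicates. The methods name 4 technical replicates per protein, while the labels give 2 immunoprecipitated libraries for Dmel_Zeus and 4 for Dyak_Caf40. Which libraries were the 2 best, and whether the input was the control in peak calling, is not given in the sources used here. The submitters' processing notes name CASAVA 1.4 and the mouse build mm9, which cannot be the build of fly coordinates. The lists were deposited by the authors with a sequence, start, end, name and score per peak. The score has no stated scale and served as a rank. Starts and ends, deposited from 0, are given from 1.

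Each list was matched to its protein by a letter shared with the library titles. Lines alike in all 5 columns were counted once, and mitochondrial peaks (2 of Dmel_Zeus, 1 of Dyak_Caf40) were left out. Overlap was at least 1 bp. Score and width classes split the list into 4 of nearly equal size. The 1 Mb next to a centromere was counted from the start of 2R and 3R and from the last peak end of any list on 2L, 3L and X, and was chosen after the data had been seen, as was the breakdown within the highest score class. Regions named are the 5 pairs with the lowest rank sum, the 5 highest-scoring not kept peaks, the 3 lowest-scoring kept peaks, all unshared Dmel_Zeus peaks, the 3 pairs with the largest rank difference in each direction and the best pair on X and on 4. The edge cases of the overlap rule and the clusters of at least 10 peaks were added after their values had been seen. The comparison, its members and its lists were chosen with earlier results of these data known. Alternatives were other overlap rules, sequences, score limits, list sizes, repeated lines, wide peaks and clusters. Scripts were tested on simulated data, and overlaps were checked with bedtools 2.31.1. Python 3.11.15, pandas 2.3.3, numpy 2.4.6, scipy 1.17.1 and matplotlib 3.10.9 were used. No sequence was read, since a genome of the dm3 build was not used here, and motifs and genes were not analysed here.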

Additional observations from a re-analysis of the deposited data

How the results depend on the processing

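Of 98 values under alternative settings, 74 moved by less than their error and 24 by more. No difference changed sign, but the kept share on X passed below that of all peaks with the higher-scoring 50% of each list. Sharing at least 50% of the shorter peak and counting every line moved nothing beyond error. With as many top-scoring Dyak_Caf40 as Dmel_Zeus peaks, the kept share was 83.0% over all sequences, 90.5% on X, 83.3% on chromosome 4 and 87.9% on heterochromatic sequences. At this size 84.3% of Dmel_Zeus peaks were shared, the difference in score percentile between kept and not kept peaks was 43.6 points (49.9 with all peaks) and Spearman's rho was 0.810. The rise in kept share follows from the shorter Dyak_Caf40 list, since peaks of low score were seldom kept. With clusters in place of peaks, the kept share was 28.1% over all sequences, 34.9% on X and 56.7% on chromosome 4. In the highest score class alone it was 71.8% on X, 73.3% on chromosome 4 and 73.8% on heterochromatic sequences. With the higher-scoring 50% of each list, the kept share on X was 16.1%, below the 18.3% of all peaks at that limit, and rho was 0.655. This setting halved the Dmel_Zeus list too, so Dyak_Caf40 peaks that met only its lower-scoring peaks counted as not kept. There the median width of kept peaks exceeded that of not kept peaks by 38 bp (-13 to 78; 101 bp with all peaks) and the median spacing by 12937 bp (-1668 to 25470; 9329 bp with all peaks). The median rank differences were -10.0 points on X, -8.06 on chromosome 4 and 41.9 on heterochromatic sequences, and the midpoint distance was 12 bp. The cause of these shifts was not tested. On the 6 arms alone rho was 0.901, and the median rank differences were -1.09 points on X (-4.04 to 1.4) and -0.47 on chromosome 4 (-6.83 to 1.86). Without peaks wider than 1000 bp that on heterochromatic sequences was 15.2 points (-1.48 to 45.9). The share of Dmel_Zeus peaks at a Dyak_Caf40 peak was 88.0% with midpoints within 200 bp and 84.8% without peaks wider than 1000 bp, which removes wide partners by construction. No paired analysis was possible because the lists hold no value per library. Precision is limited by 1 list per protein and an unknown read depth behind each peak.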
